A study of Oryza sativa with 12 samples.

Results

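Prolamins are the alcohol-soluble seed storage proteins of cereals. In rice they are made in the starchy endosperm during grain filling, enter the endoplasmic reticulum and accumulate there in spherical protein bodies, apart from the glutelins, which go to storage vacuoles. Prolamins are encoded by multigene families whose members lie in tandem groups and can be near-identical in sequence, and their transcripts are among the most abundant of the filling grain. The 10 prolamin loci described here were chosen by their identifiers in Release 7 of the MSU rice annotation, out of 35587 genes listed in at least 1 library. The rule uses identifiers alone, although the loci were proposed with earlier results of these data known. The deposited values carry no annotation of the loci, and those of LOC_Os03g55730 did not follow the other 9. Whether it is a prolamin locus could not be checked here, so shares of the FPKM total are given with and without it.

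Expression was measured by RNA-seq in developing grains (caryopses) of rice at 5 and 10 days after flowering (DAF), with 3 libraries per genotype and stage and 12 in all. *RGB1Ri-5* is 1 line in which a hairpin RNA against *RGB1*, a subunit of the heterotrimeric G protein, is transcribed from a maize ubiquitin promoter. *WYJ8* (Wuyujing 8) is the wildtype it was compared with, and the background in which the line was made. Both genotypes were sampled at both stages, which gave 4 groups. The methods mention biological replicates for the expression measurements and grains taken from many panicles, but do not state from which plants each sequenced library came, so p-values measure the spread between these libraries, which may be technical. *RGB1* itself was not analysed here, since nothing at hand pairs it with an MSU identifier.

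Values are FPKM, the number of sequenced fragments scaled by transcript length and by the mapped fragments of the library, so levels of different loci can be compared per length. Between 27055 and 29576 genes were listed per library, and FPKM summed to 543480 to 618797. How many reads stand behind a value is unknown. Steps between the low values placed the depth of the other 11 libraries at 0.871 to 1.08 times that of *WYJ8* 5 DAF replicate 1. Replicate 2 of *RGB1Ri-5* at 10 DAF stood apart: across the 21470 tested genes its log2 values had Pearson's r of 0.950 and 0.899 with replicates 1 and 3, against 0.971 to 0.990 between replicates within the other 3 groups. Replicates 1 and 3 had r = 0.959 with each other. Genes, over which these r were computed, are not independent replicates. Beside the main results that it moves, values without replicate 2 are given.

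The loci lie on 5 chromosomes. LOC_Os05g26350 (chromosome 5, 15330468 to 15331142), LOC_Os05g26368 (15333030 to 15333661), LOC_Os05g26377 and LOC_Os05g26386 (both listed at 15338151 to 15338822) form a tandem group of under 10 kb, with LOC_Os05g26720 (15512512 to 15513163) farther along the same chromosome. LOC_Os07g10570 (chromosome 7, 5736874 to 5737846) and LOC_Os07g10580 (5741848 to 5742542) are neighbours. LOC_Os06g31070 (chromosome 6, 18072221 to 18072904) and LOC_Os11g33000 (chromosome 11, 19509287 to 19509923) stand alone. LOC_Os03g55730 (chromosome 3, 31725970 to 31732265) spans 6296 bp, against 632 to 973 bp for the other 9. Coordinates are those of the deposited values in the MSU Release 7 assembly. Since LOC_Os05g26377 and LOC_Os05g26386 share the same coordinates and neighbouring copies can share reads, how FPKM were divided between single loci of the chromosome 5 group is uncertain, and sums are given beside them.

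The prolamin loci made up a large part of the *WYJ8* transcriptome at 10 DAF and a very small part of that of *RGB1Ri-5*. At 10 DAF they held 0.0258%, 1.07% and 0.0199% of the FPKM total in the *RGB1Ri-5* replicates 1 to 3, against 9.08%, 8.15% and 10.7% in *WYJ8*. The means were 0.371 ± 0.604% in *RGB1Ri-5* and 9.29 ± 1.27% in *WYJ8* (SD, n = 3 each). Without replicate 2 the *RGB1Ri-5* mean was 0.0229%. At 5 DAF the shares were 0.00873%, 0.0118% and 0.00859% in *RGB1Ri-5*, against 0.954%, 0.987% and 2.52% in *WYJ8*, with means of 0.00970 ± 0.00180% and 1.49 ± 0.896% (SD, n = 3 each). The 9 loci other than LOC_Os03g55730 held 0.0175%, 1.06% and 0.0121% at 10 DAF in *RGB1Ri-5*, against a mean of 9.29 ± 1.27% in *WYJ8*, and 0.00331 ± 0.00168% at 5 DAF in *RGB1Ri-5*, against 1.48 ± 0.896% in *WYJ8* (SD, n = 3 each). The genotypes did not overlap at either stage. Of the 100 genes of highest FPKM in a library, 9, 8 and 9 were prolamin loci in the *WYJ8* replicates at 10 DAF and 2, 2 and 3 in those at 5 DAF. In *RGB1Ri-5* there were 0, 3 and 0 at 10 DAF and 0 in all 3 replicates at 5 DAF. In bulk grains, fewer cells that express a gene and less RNA per cell cannot be told apart.

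**Figure D1:**
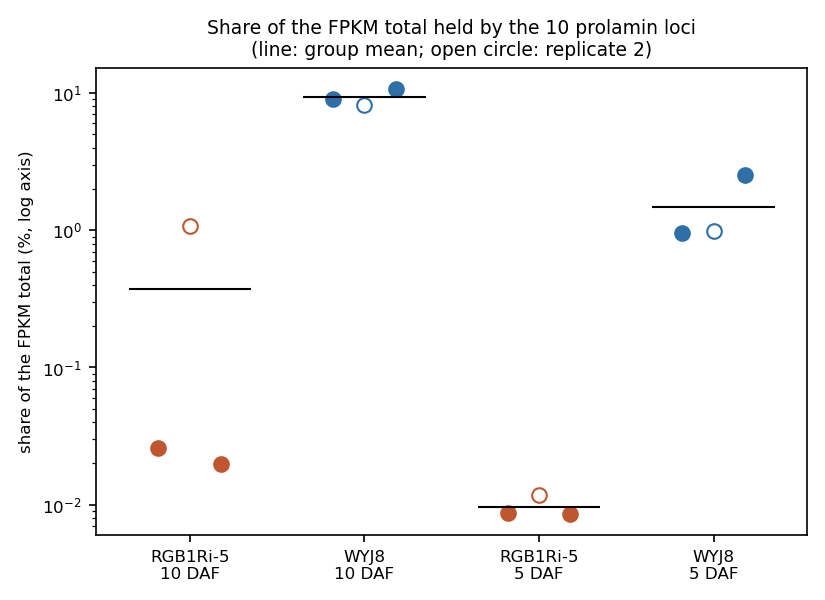
Share of the FPKM total held by the 10 prolamin loci (%, log axis) in each library, by genotype and stage. Points are libraries, open circles are replicate 2 and lines are group means. The *WYJ8* libraries at 10 DAF lie between 8.15% and 10.7%, and of the *RGB1Ri-5* libraries at 10 DAF only replicate 2, at 1.07%, lies above 0.0258%.

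At 10 DAF, 9 of the 10 loci were lower in *RGB1Ri-5* than in *WYJ8* and 1, LOC_Os03g55730, was higher. All 9 had their 3 *RGB1Ri-5* values under their 3 *WYJ8* values. A locus was called where limma gave a Benjamini-Hochberg adjusted p under 0.05 and the log2 fold change reached 1 in size. By that rule 3.33% of all tested genes were lower and 36.4% were higher in *RGB1Ri-5* at 10 DAF, and 5.60% of tested genes had all *RGB1Ri-5* values below all *WYJ8* values. The median log2 fold change was -8.36 over the 10 loci and 0.80 over all tested genes, and without replicate 2 of *RGB1Ri-5* it was -10.63 over the loci and 0.89 over all tested genes. Log2 fold changes are of FPKM + 1, which understates changes of low values.

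LOC_Os07g10580 was the most abundant of the loci in *WYJ8* at 10 DAF. Its FPKM were 4.33, 1225 and 6.39 in *RGB1Ri-5* and 21536, 19008 and 25597 in *WYJ8*, where it ranked second, second and first among all genes. The log2 fold change was -9.23 (SE 1.61, adjusted p = 0.000247). Its neighbour LOC_Os07g10570 had 1.77, 221 and 2.49 FPKM in *RGB1Ri-5* and 7759, 7859 and 9918 FPKM in *WYJ8*. The log2 fold change was -9.36 (SE 1.47, adjusted p = 0.000117). Summed, the chromosome 7 pair changed by -9.35 (SE 1.58, adjusted p = 0.000202), and by -11.82 without replicate 2 of *RGB1Ri-5* (adjusted p = 3.29e-07). In both loci replicates 1 and 3 of *RGB1Ri-5* were below 10 FPKM and replicate 2 lay between them and *WYJ8*.

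LOC_Os06g31070 had 2.13, 1189 and 2.31 FPKM in *RGB1Ri-5* and 6417, 6828 and 7314 FPKM in *WYJ8*, a log2 change of -8.21 (SE 1.74, adjusted p = 0.00101). LOC_Os11g33000 had 87.9, 2662 and 54.5 FPKM in *RGB1Ri-5* and 9484, 7786 and 9601 FPKM in *WYJ8*. The log2 fold change was -5.24 (SE 1.08, adjusted p = 0.000806), and it was the prolamin locus of highest FPKM in each *RGB1Ri-5* library at 10 DAF. In replicate 2 it ranked 7 among all genes, against 1066 and 2014 in replicates 1 and 3.

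The chromosome 5 loci had similar fold changes at lower levels. LOC_Os05g26386 had 1.47, 88.4 and 1.19 FPKM in *RGB1Ri-5* and 3557, 3274 and 5699 FPKM in *WYJ8* (-9.01, SE 1.07, adjusted p = 1.77e-05). LOC_Os05g26350 had 0.322, 115 and 0.432 FPKM in *RGB1Ri-5* and 2599, 1661 and 3339 FPKM in *WYJ8* (-8.66, SE 1.28, adjusted p = 7.59e-05). LOC_Os05g26368 had 0.561, 94.3 and 0.572 FPKM in *RGB1Ri-5* and 2014, 1827 and 3101 FPKM in *WYJ8* (-8.51, SE 1.18, adjusted p = 4.88e-05). Replicates 1 and 3 of *RGB1Ri-5* were thus at 1.47 FPKM or below at loci with 1661 FPKM or more in every *WYJ8* library. LOC_Os05g26720 was not listed in *RGB1Ri-5* replicate 1 and had 39.0 and 0.162 FPKM in replicates 2 and 3, against 915, 582 and 882 FPKM in *WYJ8* (-7.76, SE 1.08, adjusted p = 4.88e-05). LOC_Os05g26377 was likewise not listed in replicate 1 and had 134 and 0.236 FPKM in replicates 2 and 3, against 580, 328 and 436 FPKM in *WYJ8* (-6.31, SE 1.44, adjusted p = 0.00162). Summed, the 4 tandem loci changed by -9.07 (SE 1.40, adjusted p = 0.000103), and by -11.41 without replicate 2 of *RGB1Ri-5* (adjusted p = 3.74e-09). LOC_Os05g26377 and LOC_Os05g26386 together had 1.47, 223 and 1.42 FPKM in *RGB1Ri-5*, against a mean of 4625 ± 1335 FPKM in *WYJ8* (SD, n = 3).

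LOC_Os03g55730 differed in direction. It had 46.7, 36.0 and 44.5 FPKM in *RGB1Ri-5* and 18.7, 15.1 and 16.1 FPKM in *WYJ8*, a log2 change of 1.30 (SE 0.14, adjusted p = 9.93e-06). In the same comparison 36.4% of all tested genes were called higher, and their median log2 fold change over all tested genes was 0.80. The increase fell under the fold limit at 0.34 with median-of-ratios scaling, 0.58 after quantile normalization and 0.69 with totals made equal without the 100 most abundant genes.

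**Figure D2:**
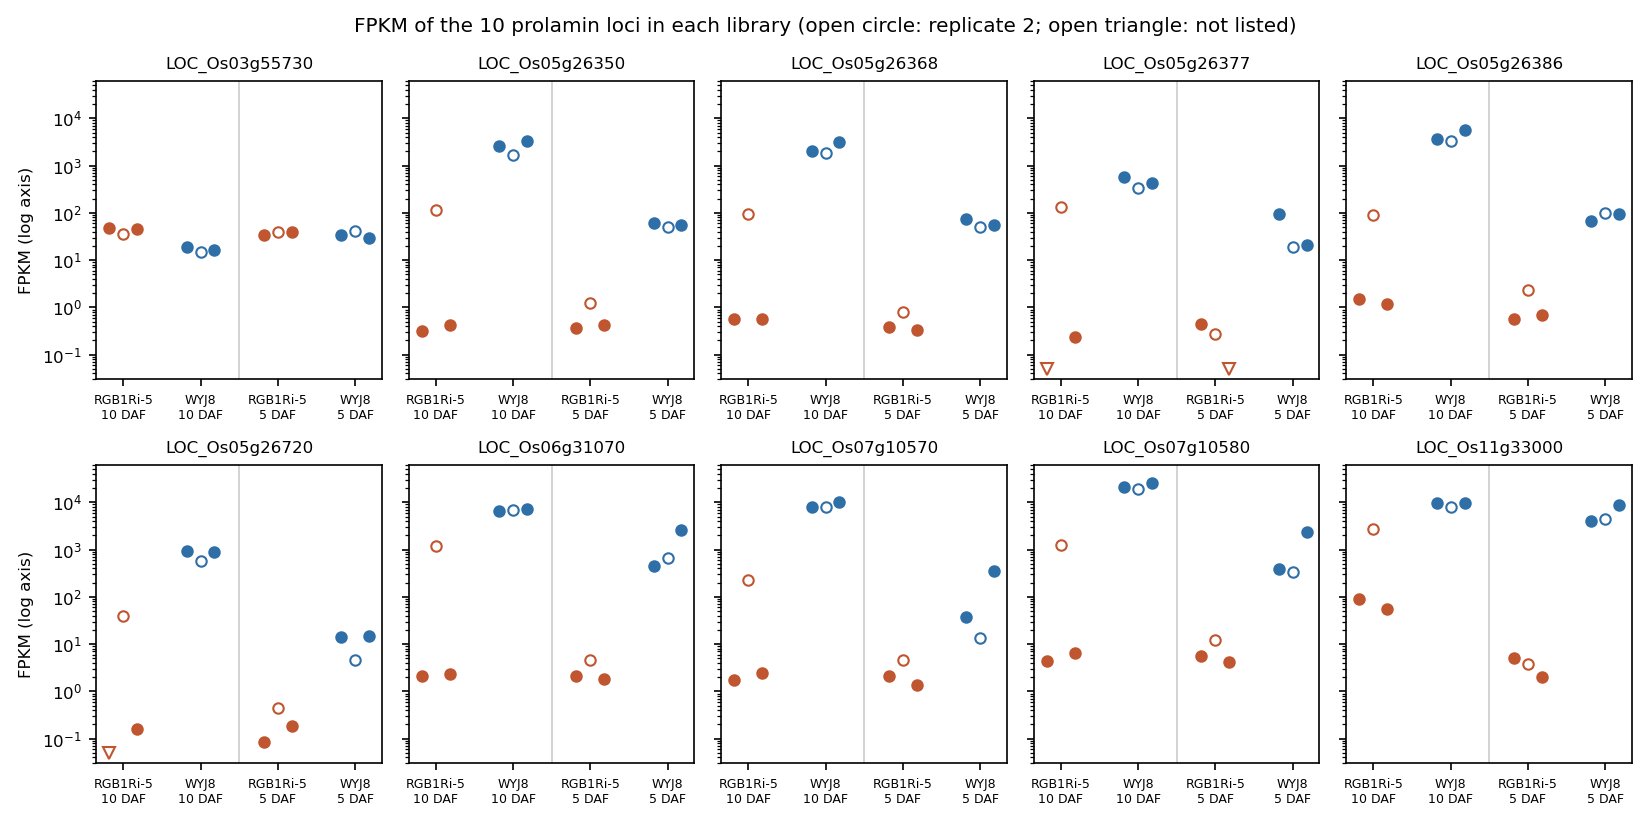
FPKM (log axis) of each of the 10 prolamin loci in the 12 libraries, by genotype and stage. Filled circles are replicates 1 and 3, open circles replicate 2 and open triangles libraries in which the locus was not listed. At 10 DAF replicate 2 of *RGB1Ri-5* lies far above replicates 1 and 3 at 9 loci, and not at LOC_Os03g55730 (36.0 FPKM against 46.7 and 44.5 FPKM).

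Replicate 2 of *RGB1Ri-5* at 10 DAF held higher prolamin values than its replicates 1 and 3 at 9 loci. With 1 FPKM added to each value, replicate 2 was at least 10 times the higher of replicates 1 and 3 in 63 of the 21470 tested genes (0.293%), and 9 of the 10 prolamin loci were among these. The ratio was 360 at LOC_Os06g31070, 166 at LOC_Os07g10580 and 29.9 at LOC_Os11g33000, the lowest of the 9. *OsNF-YB1* (LOC_Os02g49410), the endosperm transcription factor gene named in the study, had 17.5, 110 and 8.04 FPKM in *RGB1Ri-5* at 10 DAF, against 331, 320 and 252 FPKM in *WYJ8*. It was thus also highest in replicate 2. At 5 DAF it had 0.155, 0.607 and 0.0754 FPKM in *RGB1Ri-5* and 148, 133 and 294 FPKM in *WYJ8*. In *RGB1Ri-5* replicates 1 and 3 at 10 DAF it was above every *RGB1Ri-5* value at 5 DAF, as LOC_Os11g33000 was. LOC_Os06g31070 and LOC_Os07g10580 were not. The part of *OsNF-YB1* in the prolamin values was not tested. Without replicate 2, the same 9 loci were called lower at 10 DAF, with log2 fold changes of -6.99 to -11.77 and adjusted p of at most 1.48e-06.

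At 5 DAF, 9 of the 10 loci were again lower in *RGB1Ri-5* than in *WYJ8*, and LOC_Os03g55730 did not pass the test. Of all tested genes, 10.1% were called lower at this stage, and 34.9% had all *RGB1Ri-5* values below all *WYJ8* values, as the same 9 loci had. The median log2 fold change was -5.22 over the 10 loci and -0.07 over all tested genes.

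LOC_Os11g33000 had the largest difference of the loci at 5 DAF. It had 5.10, 3.84 and 2.06 FPKM in *RGB1Ri-5* and 4084, 4496 and 8905 FPKM in *WYJ8*, where it ranked second, second and first among all genes. The log2 fold change was -10.25 (SE 1.08, adjusted p = 1.45e-05). LOC_Os06g31070 had 2.16, 4.51 and 1.80 FPKM in *RGB1Ri-5* and 451, 662 and 2575 FPKM in *WYJ8* (-7.97, SE 1.74, adjusted p = 0.00257). LOC_Os07g10580 had 5.51, 11.9 and 4.20 FPKM in *RGB1Ri-5* and 379, 343 and 2325 FPKM in *WYJ8* (-6.47, SE 1.61, adjusted p = 0.00555). LOC_Os07g10570 had 2.16, 4.70 and 1.38 FPKM in *RGB1Ri-5* and 36.5, 13.7 and 347 FPKM in *WYJ8*, where it was below its neighbour in every library. It changed by -4.04 on the log2 scale (SE 1.47, adjusted p = 0.0374). In these 4 loci *WYJ8* replicate 3 was well above replicates 1 and 2, and *OsNF-YB1* was also highest there among the *WYJ8* libraries at 5 DAF. Among the *WYJ8* libraries at 10 DAF *OsNF-YB1* was instead lowest in replicate 3 (252 FPKM), where the prolamin share was highest (10.7%).

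The chromosome 5 loci had no such excess in *WYJ8* replicate 3. LOC_Os05g26386 had 0.558, 2.30 and 0.674 FPKM in *RGB1Ri-5* and 66.6, 101 and 94.5 FPKM in *WYJ8* (-5.41, SE 1.07, adjusted p = 0.00134). LOC_Os05g26368 had 0.375, 0.811 and 0.327 FPKM in *RGB1Ri-5* and 72.2, 49.6 and 56.3 FPKM in *WYJ8* (-5.32, SE 1.18, adjusted p = 0.00278). LOC_Os05g26350 had 0.364, 1.26 and 0.417 FPKM in *RGB1Ri-5* and 61.2, 50.4 and 55.2 FPKM in *WYJ8* (-5.11, SE 1.28, adjusted p = 0.00578). These 3 were at 2.30 FPKM or below in every *RGB1Ri-5* library and at 49.6 FPKM or above in every *WYJ8* library. LOC_Os05g26377 had 0.440 and 0.272 FPKM in *RGB1Ri-5* replicates 1 and 2 and was not listed in replicate 3, against 94.5, 19.3 and 20.7 FPKM in *WYJ8* (-4.83, SE 1.44, adjusted p = 0.0150). LOC_Os05g26720, the lowest of the 9 in *WYJ8*, had 0.0851, 0.436 and 0.181 FPKM in *RGB1Ri-5* and 14.0, 4.62 and 15.1 FPKM in *WYJ8* (-3.17, SE 1.08, adjusted p = 0.0277). Summed, the 4 tandem loci changed by -6.20 (SE 1.40, adjusted p = 0.00313) and the chromosome 7 pair by -6.20 (SE 1.58, adjusted p = 0.00653).

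LOC_Os03g55730 had 34.2, 38.4 and 39.0 FPKM in *RGB1Ri-5* and 33.9, 40.4 and 29.3 FPKM in *WYJ8* at 5 DAF. The genotypes overlapped and the log2 fold change of 0.11 (SE 0.14) was not past the threshold (adjusted p = 0.531). Of the 9 calls at 5 DAF, 3 were lost when 1 library was left out, with the locus still lower in *RGB1Ri-5*. LOC_Os05g26377 lost its call without *WYJ8* 5 DAF replicate 1 (-4.10, adjusted p = 0.0641). LOC_Os05g26720 lost it without *WYJ8* 5 DAF replicate 1 or 3 or any *RGB1Ri-5* 5 DAF replicate (-2.90 to -3.29, adjusted p of 0.0533 to 0.0827). LOC_Os07g10570 lost it without any of these or *WYJ8* 10 DAF replicate 1 (-2.75 to -4.40, adjusted p of 0.0505 to 0.153), with the -2.75 without *WYJ8* 5 DAF replicate 3. The fit takes 1 spread per gene from all 4 groups, so *RGB1Ri-5* 10 DAF replicate 2 enters the p-values of every comparison, also at 5 DAF. With only the 6 libraries of 5 DAF in the fit, or without *RGB1Ri-5* 10 DAF replicate 2, all 9 loci were called lower, with adjusted p of at most 0.00701 and 0.00200. With no filter on low values LOC_Os05g26720 (0.0615) and LOC_Os07g10570 (0.0788) were not called.

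**Figure D3:**
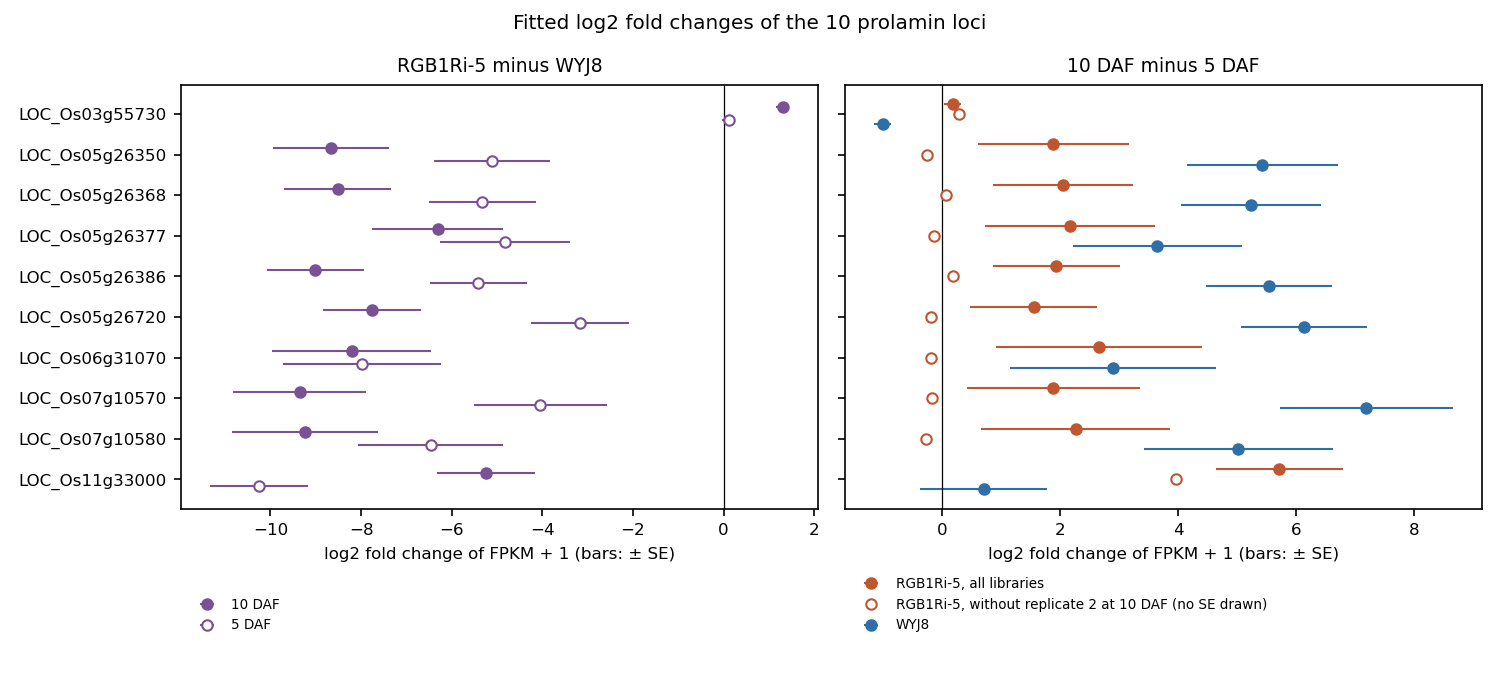
Log2 fold changes of FPKM + 1 for the 10 prolamin loci from limma, with bars of ± SE. Left, *RGB1Ri-5* minus *WYJ8* at 10 DAF (filled) and 5 DAF (open); right, 10 DAF minus 5 DAF in *RGB1Ri-5* with all libraries (filled) and without replicate 2 at 10 DAF (open, no SE drawn), and in *WYJ8*. The genotype difference at LOC_Os11g33000 is -5.24 at 10 DAF and -10.25 at 5 DAF, while those of LOC_Os07g10570 are -9.36 and -4.04.

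In *WYJ8*, 7 of the 10 loci were upregulated at 10 DAF relative to 5 DAF and LOC_Os03g55730 was downregulated, in a comparison in which 2.11% of all tested genes were called higher and 33.3% lower. The median log2 fold change was 5.13 over the 10 loci and -0.77 over all tested genes. LOC_Os07g10570 rose to 8512 ± 1219 FPKM at 10 DAF, against 133 ± 186 FPKM at 5 DAF (SD, n = 3 each; log2 fold change 7.20, SE 1.47, adjusted p = 0.000816). LOC_Os05g26720 averaged 793 ± 184 FPKM at 10 DAF and 11.2 ± 5.74 FPKM at 5 DAF (6.14, SE 1.08, adjusted p = 0.000284). LOC_Os07g10580 averaged 22047 ± 3324 FPKM at 10 DAF and 1015 ± 1134 FPKM at 5 DAF (5.03, SE 1.61, adjusted p = 0.0128). The 4 tandem loci of chromosome 5 rose by 3.65 to 5.54, and by 5.22 when summed (SE 1.40, adjusted p = 0.00474).

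The other 2 loci were already high at 5 DAF, as LOC_Os07g10580 also was (343 to 2325 FPKM). LOC_Os11g33000 averaged 8957 ± 1016 FPKM at 10 DAF and 5829 ± 2673 FPKM at 5 DAF, with overlapping values (0.71, SE 1.08, adjusted p = 0.559). LOC_Os06g31070 averaged 6853 ± 449 FPKM at 10 DAF and 1229 ± 1170 FPKM at 5 DAF, with no overlap, and did not pass the test (2.90, SE 1.74, adjusted p = 0.144). In the 6 *WYJ8* libraries alone it was called (adjusted p = 0.00513, and 0.00486 with the replicate number as a block), as it was without *RGB1Ri-5* 10 DAF replicate 2 (adjusted p = 0.000264). All values at 10 DAF were above all at 5 DAF for 8 of the 10 loci, which 4.62% of tested genes had. LOC_Os03g55730 averaged 16.6 ± 1.86 FPKM at 10 DAF and 34.6 ± 5.58 FPKM at 5 DAF (-1.01, SE 0.14, adjusted p = 5.84e-05). Its call was lost without *WYJ8* 5 DAF replicate 2 (-0.89), *WYJ8* 10 DAF replicate 2 (-0.95) or replicate 3 (-0.99), and was -0.06 with median-of-ratios scaling, -0.30 with quantile normalization and -0.43 with totals made equal without the 100 most abundant genes. LOC_Os05g26377 (3.65, adjusted p = 0.0345) lost its call without *WYJ8* 5 DAF replicate 2 or 3 or any *WYJ8* 10 DAF replicate (adjusted p of 0.0572 to 0.0974) and with a pseudocount of 0.1 (0.107), no filter (0.0796), quantile normalization (0.0543) or an equal total (0.0542). In the 6 *WYJ8* libraries alone it was called (adjusted p = 0.000653, and 0.000228 with the replicate number as a block). LOC_Os07g10580 lost its call with quantile normalization (3.22, adjusted p = 0.150).

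The order of the loci in *WYJ8* changed with stage. At 10 DAF LOC_Os07g10580 was above all others in every library. LOC_Os11g33000 and LOC_Os07g10570 came next and overlapped each other, followed by LOC_Os06g31070 (6417 to 7314 FPKM). LOC_Os05g26386 (3274 to 5699 FPKM) overlapped LOC_Os05g26350 (1661 to 3339 FPKM), which overlapped LOC_Os05g26368 (1827 to 3101 FPKM). LOC_Os05g26720 (582 to 915 FPKM) and LOC_Os05g26377 (328 to 580 FPKM) were barely apart, and LOC_Os03g55730 (15.1 to 18.7 FPKM) was lowest. At 5 DAF LOC_Os11g33000 was the highest, LOC_Os06g31070 (451 to 2575 FPKM) and LOC_Os07g10580 (343 to 2325 FPKM) followed and overlapped, and so did the ranges of LOC_Os07g10570 (13.7 to 347 FPKM), the 4 tandem loci (19.3 to 101 FPKM) and LOC_Os03g55730 (29.3 to 40.4 FPKM). LOC_Os05g26720 (4.62 to 15.1 FPKM) was the lowest in each library.

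The make-up of the summed prolamin FPKM followed this order. LOC_Os11g33000 contributed 15.9 ± 1.36% of the sum in *WYJ8* at 10 DAF and 72.2 ± 9.09% at 5 DAF (SD, n = 3 each). LOC_Os07g10580 contributed 38.9 ± 0.298% at 10 DAF and 9.73 ± 5.56% at 5 DAF. LOC_Os06g31070 contributed 11.7%, 13.9% and 11.1% in the *WYJ8* replicates at 10 DAF and 8.52%, 11.4% and 17.9% at 5 DAF, which overlapped. In *RGB1Ri-5* at 10 DAF, LOC_Os11g33000 made up 60.6%, 45.9% and 48.4% of the sum and LOC_Os07g10580 made up 2.98%, 21.1% and 5.66%. LOC_Os03g55730 supplied 32.2% and 39.4% in replicates 1 and 3 and 0.621% in replicate 2. At 5 DAF it supplied 67.1%, 56.1% and 78.0% of the *RGB1Ri-5* sum, against at most 0.700% in *WYJ8*. Its mean FPKM at 5 DAF was 37.2 ± 2.62 in *RGB1Ri-5* and 34.6 ± 5.58 in *WYJ8* (SD, n = 3 each). The other 9 loci summed to 19.3 ± 9.77 FPKM in *RGB1Ri-5* at 5 DAF, and to 98.5, 5769 and 68.3 FPKM at 10 DAF. Among these 9, LOC_Os07g10580 was highest in each *RGB1Ri-5* library at 5 DAF and LOC_Os11g33000 at 10 DAF. All parts are of the sum of all 10 loci and were not computed without LOC_Os03g55730.

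**Figure D4:**
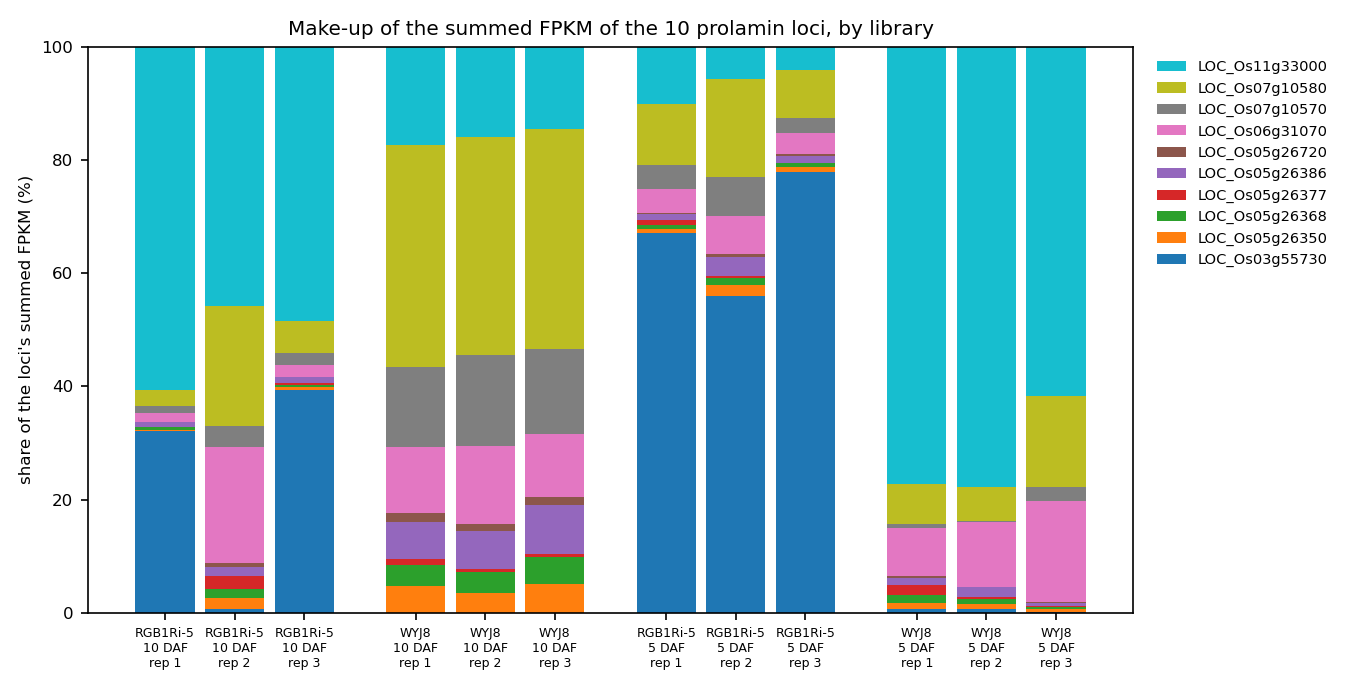
Contribution of each of the 10 prolamin loci to their summed FPKM (%, stacked bars) in each of the 12 libraries. LOC_Os11g33000 is the largest part of the *WYJ8* bars at 5 DAF (61.7% to 77.8%), LOC_Os07g10580 of those at 10 DAF (38.7% to 39.2%) and LOC_Os03g55730 of the *RGB1Ri-5* bars at 5 DAF (56.1% to 78.0%). In those *RGB1Ri-5* libraries LOC_Os03g55730 had 34.2 to 39.0 FPKM.

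In *RGB1Ri-5*, only LOC_Os11g33000 of the 10 loci was called higher at 10 DAF than at 5 DAF, where 7.56% of all tested genes were. It had 87.9, 2662 and 54.5 FPKM at 10 DAF and 5.10, 3.84 and 2.06 FPKM at 5 DAF, with no overlap (5.72, SE 1.08, adjusted p = 0.00121). Without replicate 2 at 10 DAF the change was 3.97 (adjusted p = 1.30e-05). The other 9 had fitted changes of 0.18 to 2.66 and none passed the test. Without replicate 2 at 10 DAF, 8 of them lay between -0.27 and 0.18, and LOC_Os03g55730 was at 0.29. LOC_Os05g26386 was called without replicate 3 (2.86, adjusted p = 0.0457). In replicates 1 and 3 at 10 DAF, LOC_Os06g31070 (2.13 and 2.31 FPKM) and LOC_Os07g10580 (4.33 and 6.39 FPKM) were within the range of the 5 DAF replicates.

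Whether the genotype effect differed between the stages was tested as an interaction, the effect at 10 DAF minus that at 5 DAF. Of all tested genes 6.94% were called lower and 41.4% higher in this comparison, and its median was -2.98 over the loci and 0.86 over all tested genes. The median over the loci was -1.79, -5.23 and -1.91 without *RGB1Ri-5* 10 DAF replicate 1, 2 and 3 in turn, with 0.83, 0.93 and 0.82 over all tested genes. LOC_Os07g10570 (-5.31, SE 2.08, adjusted p = 0.0353), LOC_Os05g26720 (-4.59, SE 1.52, adjusted p = 0.0167) and LOC_Os05g26386 (-3.60, SE 1.52, adjusted p = 0.0474) had a larger decrease at 10 DAF. LOC_Os11g33000 had a smaller decrease at 10 DAF (5.01, SE 1.52, adjusted p = 0.0107), and LOC_Os03g55730 was higher by 1.19 (SE 0.20, adjusted p = 0.000261). The other 5 loci, at -0.24 to -3.55, did not pass the test. Without *RGB1Ri-5* 10 DAF replicate 2, 8 loci were called lower, with adjusted p of at most 0.00299, and LOC_Os11g33000 stayed higher at 3.26. LOC_Os05g26386 lost its call when any library but that one was left out (adjusted p of 0.0629 to 0.115), and LOC_Os07g10570 when any was left out but that one, *WYJ8* 5 DAF replicate 3 and *RGB1Ri-5* 5 DAF replicate 3 (0.0565 to 0.0884). With a pseudocount of 0.1, LOC_Os05g26720 (-4.54, adjusted p = 0.0920) and LOC_Os05g26386 (-3.16, adjusted p = 0.119) were not called. LOC_Os05g26386 also lost its call with no filter (0.101), quantile normalization (0.239) or an equal total (0.0780), and LOC_Os07g10570 with no filter (0.0799) or quantile normalization (0.198). With median-of-ratios scaling LOC_Os11g33000 was at 3.88 (adjusted p = 0.0744) and LOC_Os03g55730 at 0.14 (adjusted p = 0.418). Neither summed group passed the test (-2.87, adjusted p = 0.203, for the 4 tandem loci and -3.15, adjusted p = 0.216, for the chromosome 7 pair), and both did without *RGB1Ri-5* 10 DAF replicate 2 (-5.20, adjusted p = 3.19e-06, and -5.63, adjusted p = 0.000277).

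Across the 12 libraries, log2 values of 9 loci followed the sum of the other loci, with Pearson's r of 0.898 for LOC_Os11g33000 to 0.989 for LOC_Os06g31070. LOC_Os03g55730 had r = -0.75. These are descriptions over 12 libraries in 4 groups whose group means differ. LOC_Os03g55730 stood apart from the other 9 in direction and span, and in *WYJ8* at 10 DAF also in level. In *WYJ8* at 5 DAF its level lay within theirs. The next gene along chromosome 3, LOC_Os03g55734 (31732514 to 31733054), which starts 249 bp past its end and was singled out after its values were seen, had 3.62, 295 and 3.23 FPKM in *RGB1Ri-5* at 10 DAF, against 485, 472 and 481 FPKM in *WYJ8*. At 5 DAF it had 0.623 FPKM in *RGB1Ri-5* replicate 2 and was not listed in replicates 1 and 3, against 318, 225 and 353 FPKM in *WYJ8*. At both stages its *RGB1Ri-5* values thus lay below all its *WYJ8* values, as at the 9 loci and not at LOC_Os03g55730. Its rise with stage in *WYJ8* was smaller than at most of the 9. In proportion, its replicate 2 of *RGB1Ri-5* at 10 DAF was nearer to *WYJ8* than at any of them.

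Among the 10525 other tested genes that averaged 10 FPKM or more, those most like the summed prolamin loci over the 12 libraries were LOC_Os04g46200 (chromosome 4, 27362085 to 27362954; r = 0.997) and LOC_Os10g29549 (chromosome 10, 15356833 to 15357741; r = 0.996). LOC_Os04g46200 had 7.36, 280 and 5.06 FPKM in *RGB1Ri-5* at 10 DAF, against 2529, 2638 and 2718 FPKM in *WYJ8*. At 5 DAF it had 3.52, 3.72 and 1.19 FPKM in *RGB1Ri-5* and 254, 207 and 983 FPKM in *WYJ8*. It too was highest in replicate 2 of *RGB1Ri-5* at 10 DAF and in replicate 3 of *WYJ8* at 5 DAF. LOC_Os04g46200 was also on the list of embryo markers, an annotation that could not be checked here.

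Genes near the loci were not uniformly lower. Within 100 kb of the chromosome 7 pair, 0 of 14 other tested genes had all *RGB1Ri-5* values below all *WYJ8* values at 10 DAF. The counts were 1 of 12 around LOC_Os11g33000, 2 of 10 around LOC_Os06g31070 and 1 of 21 around LOC_Os03g55730. Around the chromosome 5 loci 9 of 15 had this pattern, against the 5.60% of all tested genes given above, and some of these neighbours may share reads with the prolamin loci. Pearson's r with the prolamin sum was at least 0.9 for 4 of these 15 genes and 2 of the 21 around LOC_Os03g55730. It was so for 0 genes around the other loci. Whether any neighbour is itself a prolamin gene outside the 10 could not be checked, since the values carry no annotation.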

How the data were processed

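Grain RNA of *RGB1Ri-5* and *WYJ8* at 5 and 10 DAF was sequenced, with 3 libraries per group. The authors mapped reads with TopHat2 2.1.0 to MSU Release 7 and deposited FPKM per gene from Cufflinks 2.1.1, per library. Depth per sample is not given by FPKM, so no counting interval or floor is printed.

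Unlisted genes were set to 0. The 21470 genes that averaged 1 FPKM or more were fitted as log2(FPKM + 1) with limma 3.58.1 (R 4.3.3): group means of all 12 libraries in a single fit, a mean-variance trend, p-values adjusted by Benjamini-Hochberg across every tested gene. All 10 loci passed the filter, and 8 were listed in every library. The fit was tested on simulated data (21470 genes), where 193 of 200 log2 changes of 2 set at 5 DAF were recovered and 5 unchanged genes were called. The changed genes were drawn from those of higher mean, with the same spread in every group. That rate therefore does not carry over to loci near 0 in *RGB1Ri-5*.

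Deviations from the group means had r of 0.11 to 0.25 between same-numbered *WYJ8* libraries of the 2 stages (3 of 3 pairs), which is the only source of this pairing. Differently numbered libraries were not compared, so these r do not show that the libraries were paired. Of the 15 pairs between other groups 3 exceeded 0.1.

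Alternatives were the pseudocount, the filter, the scaling, the libraries fitted, the replicate block, the trend, the fold limit, unlisted values as missing, summed neighbours and each library left out. The block within *WYJ8*, and summed neighbours without replicate 2 of *RGB1Ri-5* at 10 DAF, were added after seeing the data. The loci and lists were chosen with earlier results of these data known. All 10 loci are named, with the 2 genes most like their sum. Lists of other storage protein, folding, regulator and cell type marker genes were not analysed as lists here, since nothing at hand pairs those identifiers with names. Of the listed regulators only *OsNF-YB1* (LOC_Os02g49410), named in the study, was looked at. LOC_Os04g46200 was on the list of embryo markers and is shown only because its values were most like the sum. The labelled tissue was therefore not checked against markers, and no sequence is shown. The authors' own test was not repeated, since it needs mapped reads.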

Additional observations from a re-analysis of the deposited data

Results flagged for a closer look

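The genotype effect differed between 10 and 5 DAF by the interaction test of limma in 5 of the 10 prolamin loci, 3 lower and 2 higher. Of all tested genes 6.94% were called lower and 41.4% higher. Together these shares are close to 5 of 10, so the count alone does not set the loci apart. The median difference over all tested genes was 0.86. The difference was -5.31 at LOC_Os07g10570, -4.59 at LOC_Os05g26720 and -3.60 at LOC_Os05g26386, whose log2 fold changes were -9.36, -7.76 and -9.01 at 10 DAF and -4.04, -3.17 and -5.41 at 5 DAF. It was 5.01 at LOC_Os11g33000, with -5.24 at 10 DAF and -10.25 at 5 DAF, and 1.19 at LOC_Os03g55730, with 1.30 at 10 DAF and 0.11 at 5 DAF. Replicate 2 of *RGB1Ri-5* at 10 DAF moves with all but the last of these differences. Without it 8 loci were called lower in this test, against 3 with it. With a pseudocount of 0.1 only LOC_Os07g10570 of these 3 was called lower.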

How the results depend on the processing

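Of the values of single loci under alternatives, 1149 kept their direction and side of the threshold, 65 lost it, 11 gained it and 15 turned round. Many of the 1149 could not change direction. The block, the trend, the fold limit, or leaving out a library outside the comparison left the fold change as it was. With neighbours summed to 6 features, 5 were lower at 10 DAF, 5 were lower at 5 DAF and 3 rose in *WYJ8* (5, 5 and 4 when *RGB1Ri-5* 10 DAF replicate 2 was also left out). With median-of-ratios scaling, quantile normalization or an equal total without the 100 genes of highest mean, LOC_Os03g55730 was no longer called, so 0 loci were higher at 10 DAF and 0 fell in *WYJ8*, and the loci higher in the interaction numbered 0, 1 and 1, against 2. The loci lower in the interaction numbered 1 with a pseudocount of 0.1, no filter, quantile normalization or summed neighbours, against 3. Leaving out each of the 12 libraries gave 9 loci lower at 10 DAF in each case, 6 to 9 lower at 5 DAF, 6 to 8 higher and 0 to 1 lower in *WYJ8*, 1 to 2 higher in *RGB1Ri-5*, and 1 to 8 lower in the interaction (8 without *RGB1Ri-5* 10 DAF replicate 2). Values that turned round were LOC_Os03g55730 at 5 DAF (-0.030 without the 100 genes), LOC_Os11g33000 in *WYJ8* (-1.29 with quantile normalization), LOC_Os06g31070 in the interaction (1.66 with quantile normalization, and -3.08 to 1.20 with 1 library left out), and the change in *RGB1Ri-5* with 1 library left out of LOC_Os05g26350 (-0.25 to 2.98), LOC_Os05g26377 (-0.14 to 3.40), LOC_Os05g26720 (-0.18 to 2.48), LOC_Os06g31070 (-0.18 to 4.10), LOC_Os07g10570 (-0.17 to 2.99) and LOC_Os07g10580 (-0.27 to 3.65), each lowest without 10 DAF replicate 2. The cause was not tested. With the replicate block over all libraries, 8 loci were lower at 5 DAF, since LOC_Os07g10570 lost its call (adjusted p = 0.0507), and no other count changed. Depth is unknown, so the counting error of values near 0 could not be given.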
